A study of Homo sapiens with 6 samples.

Results

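The 10 genes described here encode the mitotic kinases and cyclins CDK1, CCNA2, CCNB1, CCNB2, PLK1, AURKA, AURKB, BUB1 and TTK, together with the chromosome topoisomerase TOP2A. They were chosen by name, by matching the Entrez identifiers in the deposited tables to these symbols, and the rule uses no measured value. All 10 were found among 18030 genes, with 46 of the 80668 transcripts. The cells were of the human liver cancer line Huh-7 (hepatocellular carcinoma), with 3 oeALKBH5 and 3 control libraries sequenced to ask how overexpression of ALKBH5 alters gene expression. ALKBH5 removes the N6-methyladenosine mark from RNA. The oeALKBH5 group carried the genotype label ALKBH5 overexpression, and an ALKBH5 plasmid was electroporated into the cells in 3 pulses, each at 1250 V for 20 ms. RNA was extracted at 60 h. The control group carried the genotype label WT, and all samples carried the treatment label Untreated. The electroporation text also stands beside the controls, whereas the design calls them parental, so it is not stated whether the controls were electroporated or given an empty plasmid. The libraries are numbered as biological replicates and nothing says that they came from separate cultures. The p-values below judge the difference between groups only against the spread among these samples, and that spread may be technical.

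Entry into mitosis is driven by the kinase CDK1, which is active only when bound to a cyclin, chiefly cyclin B, and which cyclin A helps to start. PLK1 and the Aurora kinases act with CDK1 on centrosomes, chromosomes and the spindle, while BUB1 and TTK serve the checkpoint that holds anaphase back until chromosomes are attached. The mRNAs of these genes are scarce in resting cells such as adult hepatocytes and are made in the late part of the cell cycle, in part through promoter elements named CCAAT boxes and the cell cycle genes homology region (CHR).

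Promoter sequence was available for 8 of the 10 genes, as 10 promoters, from RefSeq (GRCh38.p14). AURKA and TTK had no entry. Words were searched on both strands over 300 bases, from 250 before to 50 after each start: CCAAT for the CCAAT box, and TTTGAA or TTCGAA for the CHR. No other form of either element was searched, so a promoter without these words may still hold the element. The 250 bases before the start are printed for 2 genes that were higher in oeALKBH5 cells, PLK1 and TOP2A, and for the B cyclins, which did not pass the test. They are on chr16:23678639-23678888, plus strand (PLK1), chr17:40417897-40418146, minus strand (TOP2A), chr5:69166900-69167149, plus strand (CCNB1), and chr15:59104896-59105145, plus strand (CCNB2). The starts used here are those of the RefSeq entries. The gene positions given below, from GENCODE, begin further upstream, so each printed stretch lies partly, and that of PLK1 wholly, within them. Capitals mark each word found, on either strand, so that ATTGG is a CCAAT word and TTCAAA a CHR word on the opposite strand.
PLK1: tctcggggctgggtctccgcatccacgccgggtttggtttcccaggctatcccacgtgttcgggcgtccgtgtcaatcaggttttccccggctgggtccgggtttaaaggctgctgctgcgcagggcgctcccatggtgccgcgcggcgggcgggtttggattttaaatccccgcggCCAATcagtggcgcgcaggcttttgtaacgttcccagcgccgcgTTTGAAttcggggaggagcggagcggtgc
TOP2A: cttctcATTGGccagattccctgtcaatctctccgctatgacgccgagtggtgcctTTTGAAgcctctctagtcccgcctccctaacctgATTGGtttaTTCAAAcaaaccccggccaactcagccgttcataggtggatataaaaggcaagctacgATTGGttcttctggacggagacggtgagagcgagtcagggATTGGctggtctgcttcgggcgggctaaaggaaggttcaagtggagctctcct
CCNB1: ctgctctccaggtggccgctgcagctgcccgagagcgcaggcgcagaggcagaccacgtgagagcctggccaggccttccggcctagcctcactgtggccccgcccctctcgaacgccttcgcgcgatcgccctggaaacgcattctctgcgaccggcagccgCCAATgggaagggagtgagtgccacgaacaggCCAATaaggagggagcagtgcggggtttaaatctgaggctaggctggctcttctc
CCNB2: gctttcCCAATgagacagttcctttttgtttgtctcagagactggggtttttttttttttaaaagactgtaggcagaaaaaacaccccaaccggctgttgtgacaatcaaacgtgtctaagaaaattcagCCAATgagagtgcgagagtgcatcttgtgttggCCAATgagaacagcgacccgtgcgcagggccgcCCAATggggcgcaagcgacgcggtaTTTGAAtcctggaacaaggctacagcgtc

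A CCAAT word was present in all 10 promoters, belonging to all 8 genes, against 34.6% of the 35116 promoters in the table. The promoters of CDK1 overlapped each other, as did those of AURKB, in which the same CCAAT word was counted in both. A CHR word was present in 6 of the 10, belonging to 5 of the 8 genes, against 16.4% of all promoters. Neither word contains the other, and 6.38% of all promoters held both. In CCNB2 and PLK1 the CHR word began 29 bases before the start, with the nearest CCAAT word beginning 54 bases before the start in CCNB2 and 73 in PLK1. TOP2A held 4 CCAAT words and 2 CHR words. CCNB1 held CCAAT words 87 and 55 bases before the start and neither of the CHR words searched for in this window. Genes with both words stood on either side of the test: PLK1 and TOP2A passed it and CCNB2 did not. A match describes these letters and is not a measured binding site.

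ALKBH5 itself was measured at 169, 133 and 110.4 CPM (counts scaled to a common library depth with TMM, edgeR's scaling between libraries) in oeALKBH5 replicates 1, 2 and 3 and at 70.5, 74.2 and 75.5 CPM in controls. The groups did not overlap (log2 fold change 0.90, edgeR adjusted p = 0.0154). That call was lost without control replicate 2 (edgeR adjusted p = 0.0529), without control replicate 3 (0.0589) and with the replicate number as a block (0.0538). Libraries of the oeALKBH5 group held 18607084 to 18826479 estimated counts and controls 19265686 to 19378030, and each of the 10 genes had at least 820 counts in every library. The markers fixed for hepatocytes were present: all 9, which include ALB, AFP and HNF4A, had at least 1 FPKM in every library. Their summed level was lower in oeALKBH5 (8164 to 8909 FPKM) than in control libraries (12623 to 12897 FPKM), and all 9 fell by edgeR. Markers of fibroblasts summed to 6.41 to 6.52 FPKM in oeALKBH5 and 4.99 to 5.31 in control, of T and NK cells to 2.15 to 2.97 and 1.33 to 2.14, of macrophages to 4.52 to 5.62 and 5.52 to 6.94, of endothelial cells to 3.02 to 3.28 and 4.58 to 5.47, and of cholangiocytes to 93.0 to 109 and 117 to 119.9. The sums hide markers that moved in opposite directions. By edgeR, 2 of 5 fibroblast markers tested rose and 1 fell, and 1 of 5 cholangiocyte markers rose and 1 fell. For T and NK cells, 1 of 2 tested rose and 0 fell, and for macrophages 0 of 2 rose and 1 fell. The 1 endothelial marker tested fell. Of all genes tested, 20.8% rose and 22.0% fell. The part of these markers in the results below was not tested.

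Most of the mitotic genes were higher in oeALKBH5 cells, by 1.15-fold to 1.47-fold. CDK1, PLK1, AURKA, AURKB, BUB1, TTK and TOP2A rose, 0 fell, and the cyclins CCNA2, CCNB1 and CCNB2 did not pass (edgeR, adjusted p under 0.05 over 14168 genes). All 10 log2 fold changes were above 0. These 7 of 10 stand against a background in which 20.8% of genes tested were higher and 22.0% lower. The same 7 had all oeALKBH5 libraries above all controls, which held for 25.8% of genes tested. CDK1, PLK1, AURKB, TTK and TOP2A passed with at least a 1.25-fold rise, 5 of 10 against 10.9% of genes tested. The median log2 fold change was 0.31 for the 10 genes and 0.01 for all genes tested. With library size alone as scaling, the median of all genes moved to 0.09 and 4266 genes were higher and 2047 lower, against 2948 and 3114 with the main scaling. The 10 genes took 0.138% to 0.158% of the oeALKBH5 counts and 0.112% to 0.116% of the control counts. In RNA from whole cultures, a change in the number of cells that express a gene and a change in its RNA per cell cannot be told apart.

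**Figure D1:**
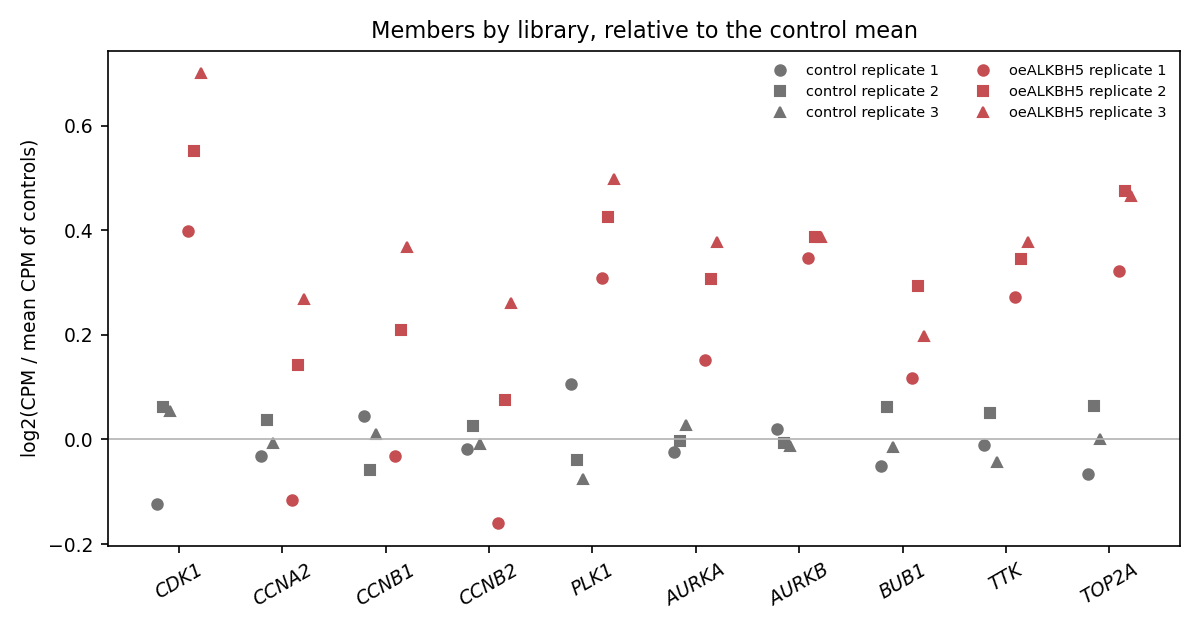
Level of each gene in each library as log2 of its CPM over the mean CPM of the 3 controls (y axis), with oeALKBH5 libraries in red and controls in grey, and 1 symbol per replicate number. In 7 genes all red points lie above all grey points, whereas in CCNA2, CCNB1 and CCNB2 oeALKBH5 replicate 1 lies among or below the controls.

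CDK1, the kinase that drives entry into mitosis, had the largest change of the 10. It lies on chromosome 10 at 60778331 to 60794852, plus strand (GENCODE release 29, GRCh38; Entrez 983). Its level was 104, 116 and 129 CPM in oeALKBH5 replicates 1, 2 and 3 and 72.6, 82.6 and 82.2 CPM in controls. The lowest oeALKBH5 library was above the highest control. The mean was 116 ± 12.2 against 79.2 ± 5.65 CPM (SD, n = 3 each), 1.47-fold higher (log2 fold change 0.56, SE 0.0726, edgeR adjusted p = 3.65e-05). Over the alternatives tried, its log2 fold change ran from 0.48 to 0.63 and every one passed.

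The cyclins that partner CDK1 had the smallest log2 fold changes of the 10 genes, and their oeALKBH5 libraries were spread over a wider range than the controls. CCNB1 encodes cyclin B1, the main partner of CDK1 in mitosis (chromosome 5, 69167010 to 69178245, plus strand; Entrez 891). It stood at 127, 150.3 and 168 CPM in oeALKBH5 and 134, 125 and 131 CPM in control libraries. Replicate 1 of oeALKBH5 lay within the control range, and replicates 2 and 3 lay above it. The log2 fold change was 0.19 (SE 0.0860, edgeR adjusted p = 0.101), with a 95% interval of -0.0012 to 0.38.

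CCNA2 encodes cyclin A2, which acts in S phase and in early mitosis (chromosome 4, 121816444 to 121823933, minus strand; Entrez 890). It was at 89.8, 107 and 117 CPM in oeALKBH5 and 95.2, 99.7 and 96.8 CPM in control libraries. Replicate 1 of oeALKBH5 was the lowest of all 6 libraries, while replicates 2 and 3 were the highest. The log2 fold change was 0.11 (SE 0.0789, edgeR adjusted p = 0.30), with a 95% interval of -0.07 to 0.28. CCNB2 encodes cyclin B2, a second B-type partner of CDK1 (chromosome 15, 59105078 to 59125045, plus strand; Entrez 9133). Its oeALKBH5 libraries held 60.4, 71.1 and 80.8 CPM and its controls 66.7, 68.7 and 67.1 CPM, again with oeALKBH5 replicate 1 below every control. The log2 fold change was 0.07 (SE 0.0845, edgeR adjusted p = 0.548), with a 95% interval of -0.12 to 0.25. The intervals of all 3 cyclins include 0.

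On counts, CCNA2 and CCNB2 passed only where oeALKBH5 replicate 1 was left out, whereas CCNB1 also passed under other alternatives. Without oeALKBH5 replicate 1 all 10 genes passed: CCNB1 had a log2 fold change of 0.29 (edgeR adjusted p = 7.04e-07), CCNA2 0.21 (0.000392) and CCNB2 0.17 (0.0076). In that fit 2947 of all 14326 genes tested were higher and 3098 lower. Leaving out any other library gave the original count of 7 of the 10 genes. Without oeALKBH5 replicate 3 the log2 fold change of CCNB2 was -0.04 (edgeR adjusted p = 0.67), that of CCNA2 0.02 and that of CCNB1 0.10. CCNB1 also passed with library size alone (log2 fold change 0.27, edgeR adjusted p = 0.0179), with DESeq2 (0.19, DESeq2 adjusted p = 0.0352) and with the trend of counts on transcript length removed (0.23, edgeR adjusted p = 0.0359).

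**Figure D2:**
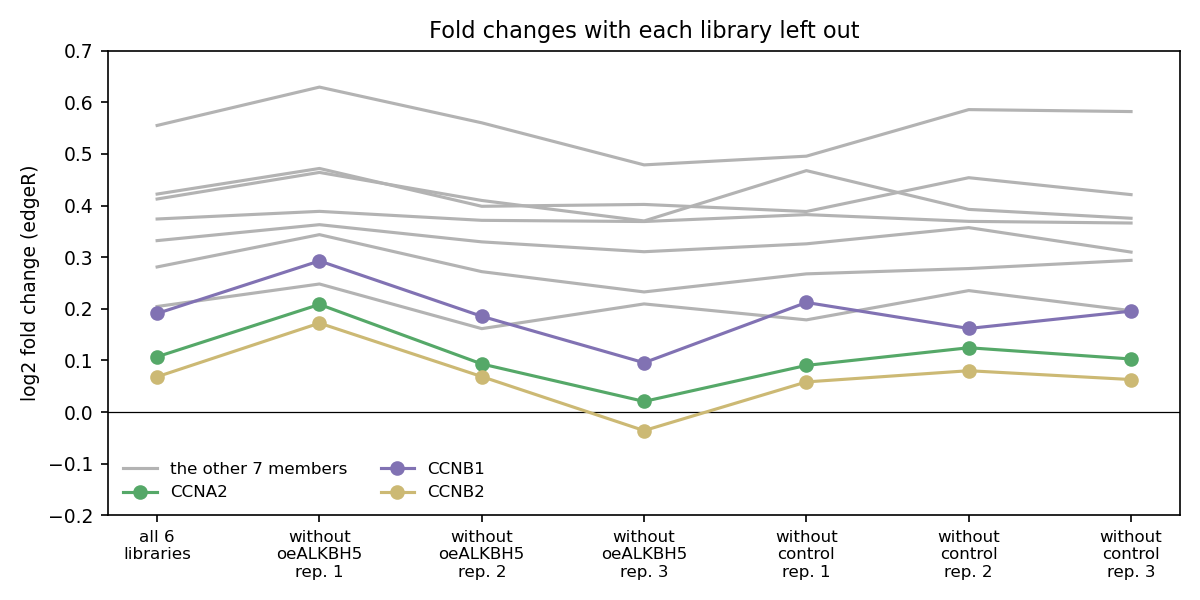
Log2 fold change of each gene, oeALKBH5 over control (y axis, edgeR), with all 6 libraries and with each library left out in turn (x axis). The 3 cyclins, drawn in colour, reach 0.17 to 0.29 without oeALKBH5 replicate 1 and -0.04 to 0.10 without oeALKBH5 replicate 3, while the other genes, in grey, stay above 0.15.

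PLK1, the Polo-like kinase that matures centrosomes and acts through mitosis to cytokinesis, rose 1.33-fold (chromosome 16, 23677656 to 23690367, plus strand; Entrez 5347). It was at 127, 138 and 145 CPM in oeALKBH5 and 110.3, 99.7 and 97.2 CPM in control libraries. The groups did not overlap, with control replicate 1 the nearest to oeALKBH5. The log2 fold change was 0.41 (SE 0.0572, edgeR adjusted p = 1.24e-05).

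The Aurora kinases both rose. AURKA, which acts at centrosomes and spindle poles (chromosome 20, 56369389 to 56392337, minus strand; Entrez 6790), was at 164, 182 and 191 CPM in oeALKBH5 and 145, 147 and 150.2 CPM in control libraries. All oeALKBH5 libraries were above all controls, and the log2 fold change was 0.28 (SE 0.0533, edgeR adjusted p = 0.000276). AURKB, the kinase of the chromosomal passenger complex at centromeres (chromosome 17, 8204733 to 8210600, minus strand; Entrez 9212), was at 166, 171 and 171 CPM in oeALKBH5 and 132, 129.9 and 129 CPM in control libraries. Its libraries were close to each other within both groups, with means of 169 ± 2.65 and 131 ± 1.58 CPM (SD, n = 3 each). AURKB had the smallest edgeR adjusted p of the 10 genes (1.55e-06), at a log2 fold change of 0.37 (SE 0.0446).

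Both checkpoint kinases rose. BUB1, which marks the centromere and recruits checkpoint proteins to the kinetochore (chromosome 2, 110637698 to 110678114, minus strand; Entrez 699), was at 99.4, 112 and 105 CPM in oeALKBH5 and 88.5, 95.7 and 90.8 CPM in control libraries. The groups did not overlap, and the log2 fold change, 0.20 (SE 0.0534, edgeR adjusted p = 0.00421), was the smallest among the 7 that passed. TTK, also named MPS1, which starts the checkpoint signal (chromosome 6, 80003887 to 80042527, plus strand; Entrez 7272), was at 54.2, 56.9 and 58.3 CPM in oeALKBH5 and 44.5, 46.5 and 43.5 CPM in control libraries. Its groups were apart as well, and the log2 fold change was 0.33 (SE 0.0554, edgeR adjusted p = 7.65e-05).

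TOP2A encodes DNA topoisomerase II alpha, which untangles sister chromatids and is not a kinase (chromosome 17, 40388516 to 40417950, minus strand; Entrez 7153). It had the most counts of the 10 genes, at 352, 392 and 389 CPM in oeALKBH5 and 269, 294 and 282 CPM in control libraries. The groups did not overlap. TOP2A rose 1.34-fold (log2 fold change 0.42, SE 0.0506, edgeR adjusted p = 1.66e-06).

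The 10 genes shared their lowest oeALKBH5 library but not their highest. Every one of the 10 was lowest in replicate 1 among the oeALKBH5 libraries, which held for 37.4% of all genes tested and for 23.1% of the 2948 genes that passed higher. Replicate 3 was the highest for 8 genes and replicate 2 for BUB1 and TOP2A. The summed level of the 10 genes was 1344, 1496 and 1553 CPM in oeALKBH5 replicates 1, 2 and 3, and 1158, 1189 and 1170.0 CPM in controls. The ALKBH5 level ran in the opposite order over the same libraries (169, 133 and 110.4 CPM), and its part in these values was not tested.

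Gene levels relative to one another were compared as log2 ratios of CPM in 6 pairs, with an exact permutation test on 3 against 3 libraries that cannot give a p below 0.1 (two-sided, adjusted over the 6 pairs). The ratio of CDK1 to CCNB1 was -0.29, -0.37 and -0.38 in oeALKBH5 and -0.88, -0.60 and -0.67 in control libraries. The groups did not overlap, and the difference was 0.37 (exact p = 0.1, adjusted 0.2). The ratio of CCNB1 to CCNB2 was higher by 0.12 in oeALKBH5 and that of BUB1 to TTK lower, at a difference of -0.13, both without overlap (exact p = 0.1, adjusted 0.2, for each). The ratios of CCNA2 to CCNB1, AURKA to AURKB and PLK1 to AURKA overlapped between groups, with differences of -0.08, -0.10 and 0.13 (exact p = 0.2, 0.2 and 0.3). With 3 libraries a group, none of these 6 differences can pass the threshold.

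The authors' FPKM values, which scale fragments by transcript length and library depth, gave a second readout of the same libraries. On log2(FPKM + 1), 8 of the 10 genes were higher and 0 lower (limma, adjusted p under 0.05), against 29.4% and 16.5% of the 12016 genes tested. CDK1 again had the largest change, at 58.5, 65.6 and 71.4 FPKM in oeALKBH5 and 38.2, 44.0 and 43.5 FPKM in control libraries (log2 difference 0.62, SE 0.0742, limma adjusted p = 8.42e-05). CCNB1 joined the other 7, at 66.1, 78.7 and 86.3 FPKM in oeALKBH5 and 65.5, 61.8 and 64.4 FPKM in control libraries (log2 difference 0.26, SE 0.0803, limma adjusted p = 0.0235). Its lowest oeALKBH5 library was just above its highest control.

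That FPKM call of CCNB1 was lost without oeALKBH5 replicate 2 (limma adjusted p = 0.0703) or 3 (0.0525), without control replicate 2 (0.0768) or 3 (0.0588), and with no filter on low values (0.0586). CCNA2 had a log2 difference of 0.17 (limma adjusted p = 0.0915) and CCNB2 0.14 (0.204). Without oeALKBH5 replicate 1 all 10 genes passed on FPKM too, where 3449 of all 11905 genes tested were higher and 1949 lower. With the replicate number as a block CCNA2 passed (limma adjusted p = 0.0409). The median log2 difference was 0.37 for the 10 genes and 0.06 for all genes tested on this scale.

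**Figure D3:**
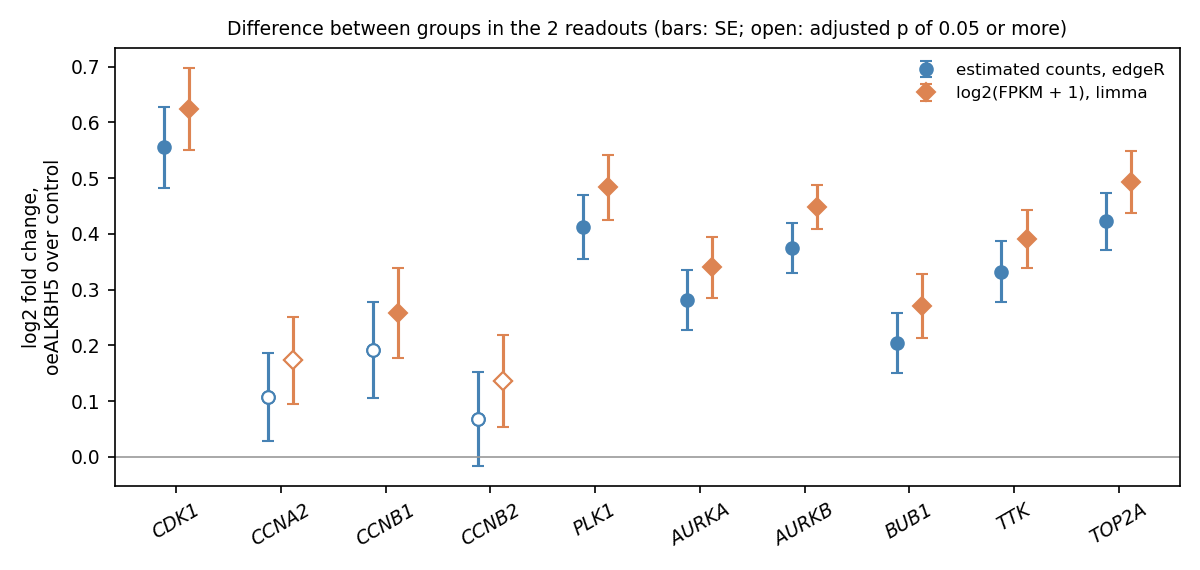
Log2 fold change of each gene, oeALKBH5 over control (y axis), from estimated counts with edgeR (blue circles) and from log2(FPKM + 1) with limma (orange diamonds). Bars are standard errors and open symbols mark an adjusted p of 0.05 or more: CCNA2 and CCNB2 are open in both readouts, and CCNB1 is open only on counts.

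Levels can be compared between genes per length, as FPKM. In control libraries AURKB had the highest level (109 FPKM), followed by AURKA (68.7), CCNB1 (63.9), TOP2A (48.5), PLK1 (47.2), CCNB2 (45.6), CDK1 (41.9), CCNA2 (35.0), BUB1 (24.8) and TTK (14.8). The library ranges of TOP2A, PLK1 and CCNB2 overlapped from one to the next, and those of the other neighbours did not. In oeALKBH5 libraries AURKB was still the highest (149 FPKM), and TTK was the lowest (19.8). CDK1, at 65.2 FPKM, stood above CCNB2 (50.5) there without overlap, the reverse of their control order. AURKA, CCNB1, TOP2A, PLK1 and CDK1 overlapped from one to the next in oeALKBH5, as did CCNB2 and CCNA2. Among the 12016 genes tested, mean FPKM placed TTK above 62.5% and AURKB above 94.9% of genes.

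**Figure D4:**
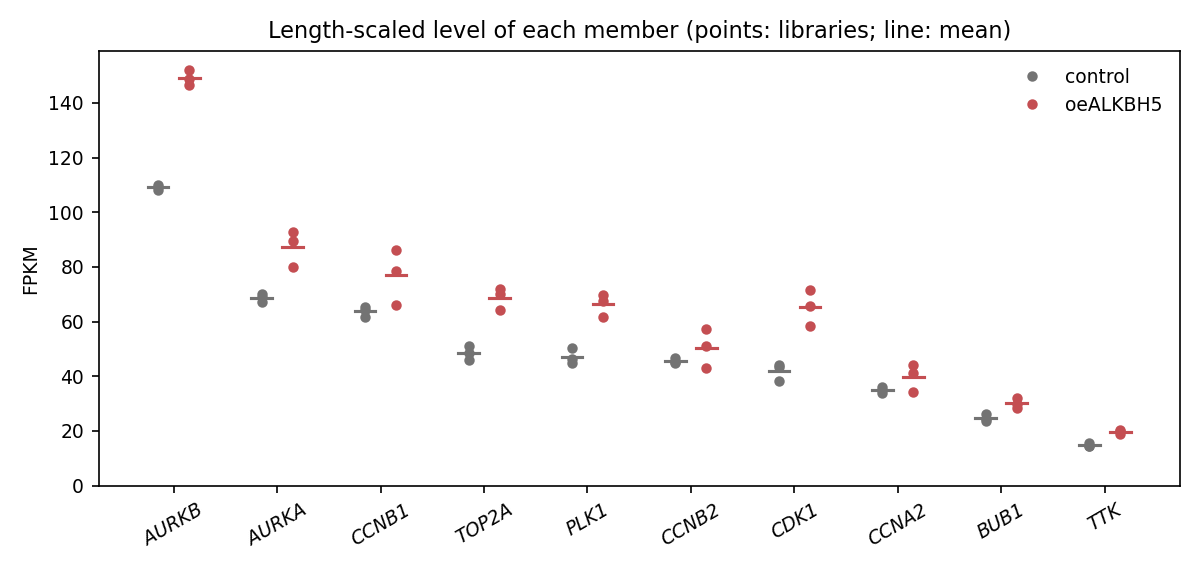
FPKM of each gene (y axis, linear, from 0) in control (grey) and oeALKBH5 (red) libraries, ordered by the control mean. Points are libraries and lines are group means: AURKB is the highest in both groups (109 and 149 FPKM) and TTK the lowest (14.8 and 19.8 FPKM).

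At the level of single transcripts the libraries gave less precision. Of the 46 transcripts of the 10 genes, 38 could be tested, and edgeR called 0 higher and 0 lower, against 0.281% and 0.732% of the 45502 transcripts tested. At an unadjusted p under 0.05 (edgeR), 10 of the 38 were higher and 0 lower, against 10.7% of all transcripts in either direction. At an adjusted p under 0.05, limma-voom called 1, NM_001067.4 of TOP2A (limma-voom adjusted p = 0.0329). The share of all transcripts that limma-voom called is not given here. The smallest edgeR adjusted p belonged to the main TOP2A transcript NM_001067.4 (log2 fold change 0.43, adjusted p = 0.0521) and to the main TTK transcript NM_003318.5 (0.40, adjusted p = 0.0523). Both lie just past the threshold, and the genes they belong to passed. Of the 38 transcripts, 34 had a log2 fold change above 0, with a median of 0.41 against 0.03 for all transcripts. AURKA supplied 11 of the 38 and AURKB 12, so they are not 38 separate results. Reads that fit several transcripts are shared out by a model, an uncertainty that edgeR does not see; 16 of the 46 transcripts were at 0 in at least 1 library.

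CCNA2, CCNB2 and PLK1 each had 1 transcript in the tables. CDK1 was mostly NM_001786.5, at 87.2%, 88.4% and 89.5% of its counts in oeALKBH5 and 89.9%, 90.2% and 90.2% in control libraries. Its transcript NM_001170407.1, named after its values were seen, held 7.39%, 6.24% and 6.29% in oeALKBH5 and 4.35%, 4.49% and 4.79% in control libraries. Neither overlapped between groups, the first lower and the second higher in oeALKBH5. Their shares were not tested, since only genes with at least 2 transcripts at a mean share of 10% or more entered that test. AURKA was divided more evenly: NM_198437.3 held 24.3%, 29.9% and 22.2% in oeALKBH5 and 32.5%, 28.6% and 29.9% in control libraries. Those ranges overlapped. NM_003600.4 of AURKA held 11.0%, 10.8% and 11.1% in oeALKBH5 and 8.31%, 8.28% and 10.7% in control libraries. Among the 10 transcripts of AURKA, AURKB, BUB1 and TTK tested for their share, only this 1 had groups that did not overlap (exact permutation p = 0.1, adjusted 0.8). AURKB was mainly NM_004217.4, with 58.7% ± 6.85 in oeALKBH5 and 60.0% ± 3.44 in control libraries (SD, n = 3 each). BUB1 was split between NM_001278616.1, with 60.5% ± 6.71 against 61.5% ± 3.28, and NM_004336.5, with 39.5% ± 6.71 against 37.1% ± 1.69. TTK was mainly NM_003318.5, with 88.1% ± 1.18 against 84.6% ± 4.55 (SD, n = 3 each). No share that was tested passed, and 0.1 is the smallest p that this exact permutation test can give.

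Other genes of mitosis and of the wider cell cycle, DNA replication among them, were taken from 12 lists. The lists were chosen with earlier results of these data known. Of 190 genes tested in the lists, 82 rose (43.2%) and 14 fell (7.37%) by edgeR, against 20.8% and 22.0% of all genes tested. With library size alone 111 rose and 9 fell. The share of each list is given below to be read against these background shares, and no list was tested against other genes. For the fit on all 6 libraries, every gene is named where 5 or fewer of a list rose or fell, and the genes not among the first 2 by p were named after their values were seen. In each list where 0 genes fell, 0 were lower at an unadjusted p under 0.05 (edgeR), with DESeq2 or with limma-voom.

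**Figure D5:**
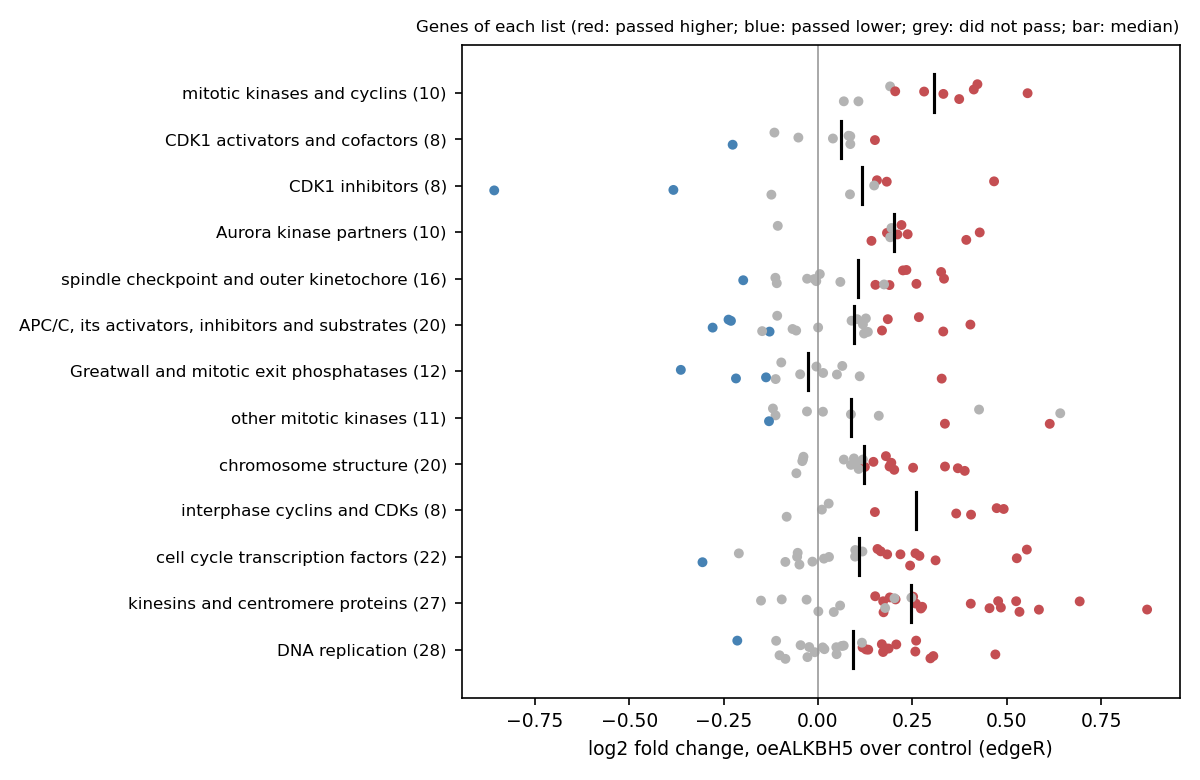
Log2 fold change, oeALKBH5 over control (x axis, edgeR), of each tested gene in the 12 lists and of the 10 mitotic kinases and cyclins (top row), with the number tested in parentheses. Red points passed higher, blue points passed lower, grey points did not pass and black bars are medians, which run from -0.03 (Greatwall and phosphatases) to 0.26 (interphase cyclins and CDKs) in the lists and reach 0.31 in the top row.

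Of 8 activators and cofactors of CDK1, 1 rose, 1 fell and 6 did not pass (median log2 fold change 0.06). Both counts are 12.5% of the list, below the background of 20.8% and 22.0%. CDC25B, a phosphatase that relieves CDKs of inhibitory phosphate, rose by 0.15 on the log2 scale (SE 0.0532, edgeR adjusted p = 0.0271), and CKS1B, a small CDK-binding subunit, fell by 0.23 (SE 0.0454, adjusted p = 0.000474). The CDC25B call was lost without oeALKBH5 replicate 2 (edgeR adjusted p = 0.097) or 3 (0.0793) and without control replicate 2 (0.104) or 3 (0.126). With the trend on transcript length removed, CKS1B had a log2 fold change of -0.04 (edgeR adjusted p = 0.495). Without oeALKBH5 replicate 1, 2 of the 8 rose; 3 rose with library size alone, and 2 rose and 0 fell with the length trend removed.

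Of 8 CDK1 inhibitors, 3 rose (37.5%), 2 fell (25.0%, near the background of 22.0%) and 3 did not pass (median 0.12). CDKN1A, which encodes the CDK inhibitor p21, was at 43.7, 36.1 and 38.3 CPM in oeALKBH5 and 72.9, 69.0 and 72.0 CPM in control libraries, with no overlap. It fell by 0.86 on the log2 scale (SE 0.0636, edgeR adjusted p = 2.23e-09). SFN, the 14-3-3 sigma protein that keeps CDK1 with cyclin B out of the nucleus, fell by 0.38 (SE 0.0936, edgeR adjusted p = 0.00257). PKMYT1, a kinase that places inhibitory phosphate on CDK1, rose by 0.47 (SE 0.0794, edgeR adjusted p = 0.000137). The related kinase WEE1 rose by 0.16 (SE 0.0545, edgeR adjusted p = 0.0256) and CDKN1B, the inhibitor p27, by 0.18 (SE 0.0531, edgeR adjusted p = 0.00900). Without control replicate 3, 1 of the 8 rose, and the adjusted p of CDKN1B was 0.0737 (edgeR).

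Of 10 partners of the Aurora kinases, 7 rose (70.0%, against 20.8% of all genes tested), 0 fell and 3 did not pass (median 0.20). Among those that did not pass, AUNIP had a log2 fold change of -0.11. INCENP, the scaffold that holds AURKB in the chromosomal passenger complex, rose by 0.43 (SE 0.0490, edgeR adjusted p = 9.15e-07). SGO2, which protects cohesin at centromeres, rose by 0.39 (SE 0.0791, edgeR adjusted p = 0.000492).

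Of 16 genes of the spindle checkpoint and outer kinetochore, 7 rose (43.8%), 1 fell (6.25%) and 8 did not pass (median 0.11). KNL1, the kinetochore scaffold to which BUB1 binds, rose by 0.33 (SE 0.0621, edgeR adjusted p = 0.000234), and BUB1B, which encodes the checkpoint protein BUBR1, by 0.23 (SE 0.0489, edgeR adjusted p = 0.000671). ZW10, which brings dynein to kinetochores, fell by 0.20 (SE 0.0692, edgeR adjusted p = 0.0259). The number that fell was 0 without oeALKBH5 replicates 1 or 2 or control replicates 2 or 3, each left out alone, and 2 without oeALKBH5 replicate 3; it was also 0 with library size alone and with DESeq2.

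The anaphase-promoting complex (APC/C) marks cyclin B for destruction. Of 20 genes for its subunits, activators, inhibitors and substrates, 5 rose (25.0%), 4 fell (20.0%) and 11 did not pass (median 0.10). These shares are near the background of 20.8% and 22.0%. UBE2S, which extends ubiquitin chains on APC/C substrates, rose by 0.33 (SE 0.0538, edgeR adjusted p = 6.5e-05), and CCNF, which encodes the F-box protein cyclin F, by 0.40 (SE 0.0750, edgeR adjusted p = 0.000365). UBE2C, FBXO5 and FZR1 rose as well, by 0.27, 0.19 and 0.17. The 4 that fell encode core subunits: CDC23 by 0.23, ANAPC10 by 0.28, CDC26 by 0.24 and ANAPC1 by 0.13. The rising count was 10 without oeALKBH5 replicate 1, 3 without control replicate 3, 9 with upper quartile scaling, 11 with library size alone and 8 with the length trend removed. The falling count was 2 without control replicate 1, with library size alone and with the length trend removed.

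Of 12 genes for the Greatwall kinase, its substrates and the phosphatases that undo CDK1 phosphorylation, 1 rose (8.33%), 3 fell (25.0%, near the background of 22.0%) and 8 did not pass (median -0.03). MASTL, which encodes Greatwall, rose by 0.33 (SE 0.0509, edgeR adjusted p = 3.56e-05). ENSA, a substrate of Greatwall that then inhibits protein phosphatase 2A, fell by 0.36 (SE 0.0594, edgeR adjusted p = 7.88e-05). PPP1CA and PPP2CA, catalytic subunits of protein phosphatases 1 and 2A, fell by 0.22 and 0.14.

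Among 11 other mitotic kinases and relatives of PLK1 and the Aurora kinases, 2 rose (18.2%), 1 fell (9.09%) and 8 did not pass (median 0.09). Neither share was above the background of 20.8% and 22.0%. PLK2 rose by 0.61 (SE 0.0935, edgeR adjusted p = 7.4e-05), and PLK4, which starts centriole duplication, by 0.34 (SE 0.0651, edgeR adjusted p = 0.000339). NEK9 fell by 0.13 (SE 0.0511, edgeR adjusted p = 0.0462). The rising count was 4 without oeALKBH5 replicate 1, 6 with library size alone and 5 with the length trend removed. The falling count was 0 without oeALKBH5 replicate 2 or any single control, with upper quartile scaling, library size alone and DESeq2. It was 2 without oeALKBH5 replicate 3 and with the replicate block.

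Genes that shape chromosomes rose in 10 of 20 cases and fell in 0 (median 0.12). MKI67, whose protein coats mitotic chromosomes, rose by 0.34 (SE 0.0447, edgeR adjusted p = 6.04e-06), and SMC4, a condensin subunit, by 0.37 (SE 0.0544, edgeR adjusted p = 2.09e-05). The count was 6 without control replicate 3 and 16 with library size alone. Of 27 kinesins and centromere proteins, 18 rose (66.7%), 0 fell and 9 did not pass (median 0.25). CENPE, a kinesin of the kinetochore, rose by 0.87 (SE 0.0784, edgeR adjusted p = 3.37e-08), and KIF18B, a kinesin that shortens microtubules, by 0.69 (SE 0.0590, edgeR adjusted p = 1.58e-08). Without oeALKBH5 replicate 3, 2 of the 27 fell.

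Cyclins and CDKs of interphase were tested for 8 of 10 genes, since CCND2 and CCNA1 were too low. The list also holds CCNB3, a B-type cyclin, which was tested and did not pass. Of the 8, 5 rose (62.5%), 0 fell and 3 did not pass (median 0.26): CCNE1 by 0.49 (SE 0.0733, edgeR adjusted p = 2.25e-05), CDK6 by 0.41 (SE 0.0561, edgeR adjusted p = 9.74e-06), CCND3 by 0.47, CCNE2 by 0.37 and CDK2 by 0.15. CCNE1 and CCNE2 encode the E cyclins that bind CDK2 at the entry to S phase.

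Of 22 cell cycle transcription factors and cofactors, 10 rose (45.5%), 1 fell (4.55%) and 11 did not pass (median 0.11). E2F8 and E2F2, members of the E2F family that acts on cell cycle genes, rose by 0.53 (SE 0.0717, edgeR adjusted p = 8.13e-06) and 0.55 (SE 0.0941, edgeR adjusted p = 9.35e-05). LIN52, a subunit shared by the complexes that repress or activate CHR genes, fell by 0.31 (SE 0.0699, edgeR adjusted p = 0.00148). FOXM1 and MYBL2, which act on late cell cycle genes and were named after their values were seen, rose by 0.22 and 0.27. Without oeALKBH5 replicate 3 and with the replicate block, 2 of the 22 fell. Of 28 DNA replication genes, 13 rose (46.4%), 1 fell (3.57%) and 14 did not pass (median 0.09). POLE, the leading-strand polymerase, rose by 0.47 (SE 0.0547, edgeR adjusted p = 1.13e-06) and MCM10 by 0.30 (SE 0.0489, edgeR adjusted p = 6.42e-05), while MCM6, a subunit of the replicative helicase, fell by 0.21 (SE 0.0445, edgeR adjusted p = 0.000662). The rising count of replication genes was 8 without control replicate 3, and 2 fell without oeALKBH5 replicate 3.

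The genes outside the 10 whose pattern over the 6 libraries lay nearest to the mean pattern of the 10 were BEX3, PHF19, RTL8B, FBXL5 and MAT2A. Nearness was the root mean square distance between centred log2 CPM values over 10471 genes, and it was 0.0147, 0.0195, 0.0231, 0.0239 and 0.0260 for these genes. AURKA was the nearest of the 10 to their own mean (0.0185) and CDK1 the farthest (0.143). BEX3 was at 147, 161 and 168 CPM in oeALKBH5 and 128, 133 and 131 CPM in control libraries.

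Transcript length moved with the fold changes over all genes: Spearman's rho between log2 fold change and effective length was 0.26 across 14168 genes, which are not independent replicates. The 10 genes ran from 1165 bases (AURKB) to 5641 bases (TOP2A). Only BUB1 (3596 bases) and TOP2A were longer than the median of 3077 bases over all genes, and the others were shorter. With the length trend removed the 7 genes that had passed all passed again, joined by CCNB1.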

How the data were processed

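RNA of 6 Huh-7 libraries was analysed as 2 groups of 3. As deposited by the authors, the tables held estimated counts for RefSeq transcripts, not scaled between libraries, and FPKM values for the same transcripts. The submitters' processing notes name RSEM 1.2.8, Bowtie2 2.2.5, HISAT2 2.1.0 and GRCh38.p13; what each tool did, any filters, the annotation release and strandedness were not given in the sources used here. Estimated counts were summed by Entrez identifier and rounded, and FPKM values were summed in the same way. Symbols matched 17881 genes, and the other 149 held 0.0264% of the counts.

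Genes were tested with edgeR 4.0.16 in R 4.3.3, by a two-sided quasi-likelihood test (robust, group alone in the design) after TMM scaling and an expression filter at a minimum count of 10, with Benjamini-Hochberg adjustment over all 14168 genes or 45502 transcripts tested. CPM used TMM-scaled totals. The deposited FPKM values were compared as log2(FPKM + 1) in limma 3.58.1, keeping 12016 genes that reached 1 FPKM in at least 3 libraries; on this scale low genes appear to differ less than they do. Ratios and transcript shares were tested with exact permutation tests (scipy 1.17.1). The genes, lists and tests were chosen with earlier results of these data known. The text names the 10 genes, ALKBH5, up to 2 genes that rose and 2 that fell by p in each list, transcripts with a mean share of at least 10%, and the 5 genes nearest in pattern whose mean log2 CPM was 3 or more; others are said to be named after their values were seen. Alternatives were scaling by library size alone, by upper quartile or by DESeq2 size factors, no filter, a CPM of at least 1 in 3 libraries, limma-voom, DESeq2 1.42.0, a block for the replicate number, removal of the trend on transcript length, an FPKM pseudocount of 0.1, ratios and shares taken from FPKM, and each library left out in turn. The scripts were tested on simulated data. Gene positions came from GENCODE release 29 (GRCh38) and figures from matplotlib 3.10.9.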

Additional observations from a re-analysis of the deposited data

How the results depend on the processing

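CDK1, PLK1, AURKA, AURKB, BUB1, TTK and TOP2A passed under all 15 alternatives run on counts, and 149 of 150 log2 fold changes of the 10 genes kept their sign; the exception was CCNB2, which ran from -0.0358 without oeALKBH5 replicate 3 to 0.1724 without oeALKBH5 replicate 1. The number that passed was 7 to 10 on counts and 7 to 10 on FPKM. With library size alone, 4266 of all genes were higher and 2047 lower, and 111 of the listed genes were higher and 9 lower (82 and 14 with TMM). Of the transcripts, 2 were higher with library size alone, 2 with a CPM of at least 1 in 3 libraries and 1 with limma-voom, against 0. The shares of all transcripts called in those fits are not given here. The replicate numbers did not pair the samples (correlations of same-numbered deviations -0.019, 0.016 and -0.012 over 14168 genes); with the replicate number as a block 7 genes passed on counts and 9 on FPKM, 3128 of all genes were higher and 3341 lower, and 0 transcripts were called. Every pair of libraries within a group differed by more than counting noise (chi-square per degree of freedom 1.65 to 7.16). Differences in transcript share (percentage points, oeALKBH5 minus control) kept their sign with each library left out for 5 of the 10 transcripts tested and changed it for the other 5. NM_198435.3 (-1.57 with all libraries) ran from -4.80 to 1.83 and was 0.285 without control replicate 3, NM_004217.4 (-1.38) ran from -4.11 to 2.46 and was 0.452 without control replicate 1, and NM_004336.5 (2.36) ran from -0.954 to 5.76. NM_001278616.1 (-0.962) ran from -4.36 to 2.35 and was 0.678 without control replicate 2, and XM_011536100.3 (-1.23) from -4.66 to 1.82. Transcript log2 fold changes with 1 library left out ran from -0.0342 to 0.1742 for NM_004701.4, from -0.1319 to 0.3943 for NM_198435.3, from -0.1173 (also -0.0089) to 0.1206 for NM_198437.3 and from -0.2348 to 0.5892 for XM_011536100.3. None of these passed, and the cause was not tested. With 3 libraries a group, exact tests of ratios and shares cannot reach a p of 0.05.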
